A study of Homo sapiens with 12 samples.

Results

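The genes described here are 10 components of the circadian clock, taken by symbol out of the 43236 gene symbols counted in each library: CLOCK, PER1, PER2, PER3, CRY1, CRY2, NR1D1, NR1D2, DBP and BHLHE40. The cells were MNNG/HOS (HOS-MNNG in the labels), a human osteosarcoma line that is a chemically transformed derivative of HOS, so that all libraries come from 1 line. They received either DMSO, the solvent control, or NXP800 at 300 nM, an oral small molecule that the study describes as designed against the HSF1 pathway and as activating the kinase GCN2. RNA was taken after 6 h or 24 h, which gives 4 groups of 3 libraries: DMSO 6 h, NXP800 6 h, DMSO 24 h and NXP800 24 h. The study's methods speak in general of independent experiments, but the labels do not say whether the 3 libraries of a group came from separate cultures. If they did not, the p-values measure only the spread between these libraries, which may be technical.

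The circadian clock is a feedback loop of transcription factors that runs in nearly every cell. CLOCK and its partner BMAL1 bind E-boxes and activate the PER and CRY genes, whose proteins return to the nucleus and repress CLOCK and BMAL1. In a second loop, NR1D1 and NR1D2 (REV-ERB alpha and beta) repress the gene of BMAL1, while DBP activates genes through D-boxes and BHLHE40 (DEC1) competes for E-boxes. PER1, PER2 and BHLHE40 also respond quickly to serum, hormones and stress signals. The labels and the RNA-seq methods read here describe no step that sets the clocks of the cells to a common phase, and a level measured in bulk cannot tell the phase of single cells from the strength of their rhythm.

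Counts assigned to genes ranged from 30810614 to 31947656 per library, and all 10 clock genes passed the filter on low counts, together with 15979 genes in all. Reads on no annotated gene made up 6.66 to 8.14% of the reads of the 6 h libraries and 2.73 to 3.67% of those at 24 h, and whether this came from the libraries or from the cells cannot be told apart. Of 6 mesenchymal and osteoblast markers, VIM, COL1A1, SPARC and RUNX2 were tested, while COL1A2 (0 to 12 counts per library) and ALPL (0 to 7 counts) were at or near 0. The summed level of the 6 was 5031 to 5220 CPM (a gene's counts scaled to the total of its library) in DMSO 6 h, 4195 to 4333 CPM in NXP800 6 h, 5915 to 6766 CPM in DMSO 24 h and 3798 to 4634 CPM in NXP800 24 h. Markers of other cell types summed to 6.21 to 7.56 CPM in the first 3 of these groups and to 10.5 to 10.6 CPM in NXP800 24 h. Most of that sum was EPCAM, and PTPRC, CDH1 and ALB had at most 5 counts in any library. VIM, COL1A1 and SPARC had lower values with NXP800 at both times (called except for VIM at 6 h), while RUNX2, the osteoblast transcription factor, rose by 0.71 at 6 h and 0.36 at 24 h on the log2 scale (adjusted p = 4.08e-05 and 0.00879). These marker levels moved with the treatment, and their part in the results on the clock genes was not tested.

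NXP800 raised most of the clock genes. At 6 h, 7 of the 10 rose and 1 fell, and 4 of these changes were over 2-fold. At 24 h, 7 rose and 1 fell, and none of these changes was over 2-fold. A gene is called changed where edgeR's quasi-likelihood test gave a Benjamini-Hochberg adjusted p below 0.05 over all genes tested. By that rule 52.8% of all genes tested were called at 6 h (25.0% higher and 27.8% lower), and 56.0% at 24 h (27.5% higher and 28.6% lower). The 8 of 10 clock genes called at each time point thus stand beside a background in which most genes were called. Among the clock genes called, 7 were higher and 1 was lower at both times. With scaling by library size alone, the share of all calls at 24 h that were higher was 58.7% instead of 49%, and the median of all genes there was 0.086. The median log2 fold change of the 10 genes was 0.63 at 6 h and 0.37 at 24 h, beside −0.05 and −0.003 over all genes tested, and their median size without regard to sign was 0.89 and 0.57 beside 0.34 and 0.38. At 6 h 11.2% of all genes tested were called with a change over 2-fold, and at 24 h 14.1%. The DMSO libraries serve as the background of each comparison within its own time point.

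**Figure D1:**
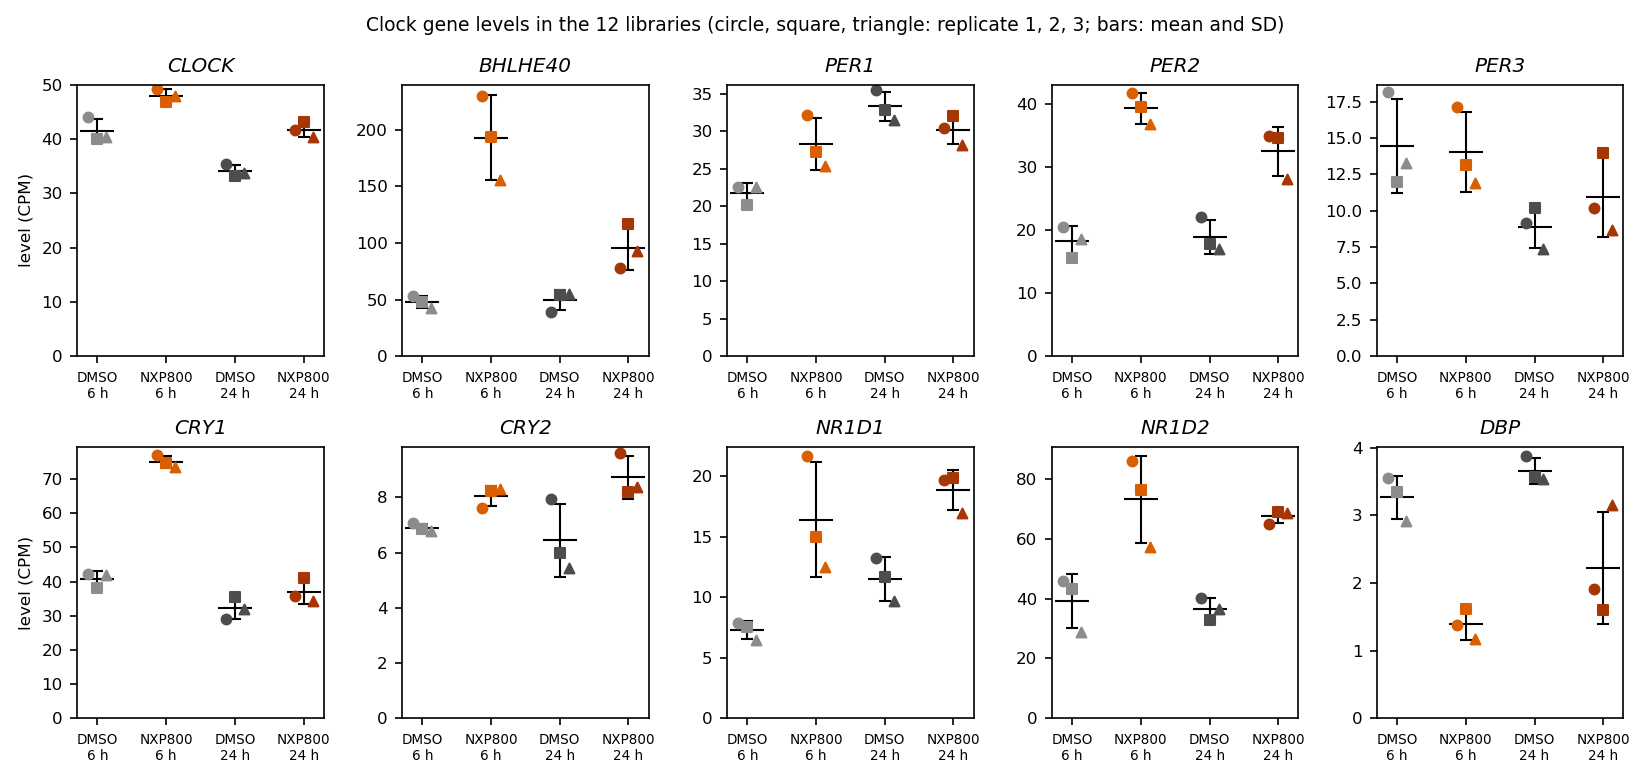
Level of each of the 10 clock genes (y axis, CPM, from 0) in the 4 groups (x axis); each symbol is 1 library, with the symbol shape giving the replicate number, and the bars give mean and SD of 3 libraries. BHLHE40 reached 155 to 230.1 CPM in the NXP800 6 h libraries against 42.8 to 53.0 CPM in DMSO 6 h, DBP was lower in every NXP800 library than in the DMSO libraries of its time point, and the PER3 groups overlapped.

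The promoter windows of the clock genes are shown because the loop acts through short elements in them. All 10 genes had a window in the RefSeq set for GRCh38.p14 (250 bases before the annotated start to 50 after it, 27305 promoters in all), and 6 elements were searched on both strands. The E-box CACGTG, the element bound by CLOCK and BMAL1 and by BHLHE40, was present in the windows of PER1 and BHLHE40 and in 7.43% of all promoters (9.9% of those of genes tested). The D-box TTATGNAA, the element of DBP and its relatives, was present in PER1 and PER3 and in 3.42% of all promoters (1.56% of those of genes tested here). The REV-ERB/ROR element TNGGTCA (9.62% of all promoters), the CRE TGACGTCA (1.98%, and 3.17% of those of genes tested), the C/EBP-ATF element TGATGNAA (3.67%, and 1.86%) and the heat shock element (0.487%, and 0.311%) were in none of the 10 windows. The related E-prime-box CACGTT was searched for after the windows had been seen, and it was present in PER2, CRY1 and NR1D1 and in 5.27% of all promoters. It does not overlap the E-box, from which it differs in its last base. The stretches below, written 5′ to 3′ on the strand of the gene and with the matched elements in capitals (an element on the other strand is read in reverse complement), are those of the clock genes that held a match and passed the test at either time point. They lie at chr17:8152412-8152592 on the minus strand for PER1, chr3:4979187-4979212 on the plus strand for BHLHE40, chr2:238288787-238288822 on the minus strand for PER2, chr12:107093618-107093653 on the minus strand for CRY1 and chr17:40100737-40100772 on the minus strand for NR1D1. The PER2 window belongs to a start inside the span that RefSeq gives the gene. 
PER1: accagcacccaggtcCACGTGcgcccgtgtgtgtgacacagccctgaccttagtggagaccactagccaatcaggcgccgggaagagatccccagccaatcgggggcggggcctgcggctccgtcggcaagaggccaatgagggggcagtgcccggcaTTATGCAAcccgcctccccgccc
BHLHE40: tccaaCACGTGagactcatgtgatga
PER2: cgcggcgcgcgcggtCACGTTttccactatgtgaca
CRY1: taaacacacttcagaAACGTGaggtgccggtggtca
NR1D1: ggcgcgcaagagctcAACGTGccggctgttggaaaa
The windows of CLOCK, CRY2, NR1D2 and DBP held none of these elements. A match describes letters in a window and not a site in use, and these libraries measured no binding.

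CLOCK, the activator of the loop and a histone acetyltransferase, rose slightly at both times. It lies at chr4:55427903-55546909 on the minus strand. Its levels in replicates 1, 2 and 3 were 44.1, 40.1 and 40.3 CPM in DMSO 6 h and 49.3, 46.8 and 47.9 CPM in NXP800 6 h. At 24 h they were 35.3, 33.2 and 33.7 CPM with DMSO and 41.6, 43.2 and 40.5 CPM with NXP800. Every NXP800 library was above every DMSO library of its time point. The log2 fold change was 0.21 at 6 h (SE 0.064, adjusted p = 0.0109) and 0.29 at 24 h (SE 0.065, adjusted p = 0.00104), which makes CLOCK the called gene with the smallest rise at 6 h.

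BHLHE40, a repressor that binds E-boxes and is induced by many signals, had the largest change of the 10. It lies at chr3:4979437-4985323 on the plus strand. In DMSO 6 h its levels in replicates 1, 2 and 3 were 53.0, 47.6 and 42.8 CPM, and in NXP800 6 h they were 230.1, 194 and 155 CPM. The groups were far apart, and the same order of replicates was seen in both. At 24 h the levels were 39.2, 53.7 and 55.0 CPM with DMSO and 77.9, 116 and 92.9 CPM with NXP800, again without overlap. On the log2 scale the change was 2.01 at 6 h (SE 0.16, adjusted p = 4.15e-08) and 0.96 at 24 h (SE 0.16, adjusted p = 7.52e-05). By size of change BHLHE40 ranked 289 of the 15979 genes tested at 6 h. The response was smaller at 24 h, with a difference of the 2 responses of −1.06 (SE 0.22, adjusted p = 0.00235). Of its exons, 12.8% by length are shared with BHLHE40-AS1 on the other strand. The strand setting of the counting is not given in the sources used here, so reads of the 2 genes may not be separable. BHLHE40-AS1 stood at 1.61 CPM or less in the group means and changed by 1.05 (log2, adjusted p = 0.00185) at 6 h, with a value of −0.43 (adjusted p = 0.261) at 24 h.

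PER2 had the largest response of the PER genes, which encode the repressors that enter the nucleus with the CRY proteins. It lies at chr2:238244044-238300065 on the minus strand. Its levels in replicates 1, 2 and 3 were 20.5, 15.6 and 18.6 CPM in DMSO 6 h and 41.6, 39.4 and 36.7 CPM in NXP800 6 h. The levels at 24 h were 22.01, 17.7 and 17.0 CPM with DMSO and 34.8, 34.6 and 28.0 CPM with NXP800. The treated libraries were above the controls at both times. The log2 fold change was 1.11 at 6 h (SE 0.12, adjusted p = 8.91e-07) and 0.78 at 24 h (SE 0.12, adjusted p = 3.14e-05). Within replicate numbers, the level with NXP800 was 1.98 to 2.53 times that with DMSO at 6 h and 1.58 to 1.95 times at 24 h. The difference of the responses was −0.33 (adjusted p = 0.157), but blocking on the replicate number took it past the threshold (adjusted p = 0.0213).

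PER1 rose with NXP800 at 6 h and did not pass the test at 24 h, and its control level was not the same at the 2 times. It lies at chr17:8140472-8152404 on the minus strand. In DMSO 6 h its levels were 22.6, 20.2 and 22.5 CPM, and in NXP800 6 h they were 32.2, 27.3 and 25.4 CPM, above all controls. At 24 h they were 35.5, 32.9 and 31.6 CPM with DMSO and 30.5, 32.0 and 28.2 CPM with NXP800, and these groups overlapped. On the log2 scale the change was 0.38 at 6 h (SE 0.092, adjusted p = 0.00251) and −0.14 at 24 h (SE 0.091, adjusted p = 0.198). The difference of the responses itself passed the test (−0.52, SE 0.13, adjusted p = 0.00762). In the DMSO libraries PER1 was higher at 24 h than at 6 h (log2 fold change 0.61, adjusted p = 7.9e-05), and the NXP800 libraries of both times lay within 25.4 to 32.2 CPM.

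PER3, the member of the family that is thought least needed for rhythm in cells, did not pass the test at either time. It lies at chr1:7784291-7845177 on the plus strand. Its levels in replicates 1, 2 and 3 were 18.2, 11.9 and 13.3 CPM in DMSO 6 h and 17.2, 13.2 and 11.9 CPM in NXP800 6 h. The levels at 24 h were 9.13, 10.2 and 7.35 CPM with DMSO and 10.2, 13.98 and 8.65 CPM with NXP800. The groups overlapped at both times, and the spread between replicates was wide. The log2 fold change was −0.04 at 6 h (SE 0.19, adjusted p = 0.874) and 0.30 at 24 h (SE 0.20, adjusted p = 0.203). Blocking on the replicate number brought the change at 24 h past the threshold (0.29, adjusted p = 0.00879) and the difference of the responses as well (0.33, adjusted p = 0.0402). With no filter on low counts the adjusted p at 24 h was 0.0270. The level with NXP800 was 1.12 to 1.37 times that with DMSO within each of the 3 replicate numbers at 24 h. Of its exons 16.6% by length are shared with genes on the other strand, UTS2 and an unnamed gene. UTS2 had at most 3 counts in any library, and the unnamed gene was not analysed here.

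CRY1, a strong repressor of CLOCK and BMAL1, rose at 6 h and much less at 24 h. It lies at chr12:106991364-107093549 on the minus strand. Its levels were 42.2, 38.1 and 42.0 CPM in DMSO 6 h and 77.1, 74.7 and 73.6 CPM in NXP800 6 h. At 24 h they were 29.1, 35.5 and 32.0 CPM with DMSO and 35.9, 41.1 and 34.2 CPM with NXP800. The groups were well separated at 6 h and overlapped at 24 h. On the log2 scale the change was 0.88 at 6 h (SE 0.082, adjusted p = 2.52e-07). At 24 h it was 0.20 (SE 0.084), at the edge of the threshold with an adjusted p of 0.0497. This call was lost when any of the 6 h libraries was left out, and also without DMSO 24 h replicate 1 (0.13, adjusted p = 0.218), DMSO 24 h replicate 3 (adjusted p = 0.104), NXP800 24 h replicate 1 (adjusted p = 0.0569) or NXP800 24 h replicate 2 (0.15, adjusted p = 0.159). With the replicate block the adjusted p was 0.00521, and the level with NXP800 was 1.07 to 1.23 times that with DMSO within replicate numbers. The fall of the response from 6 h to 24 h was −0.68 (SE 0.12, adjusted p = 0.000577).

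CRY2, the paralog of CRY1, was expressed at lower levels, and in the main fit it rose at 24 h and did not pass the test at 6 h. It lies at chr11:45847118-45883244 on the plus strand. Its levels were 7.07, 6.84 and 6.77 CPM in DMSO 6 h and 7.61, 8.23 and 8.29 CPM in NXP800 6 h. The levels at 24 h were 7.93, 5.99 and 5.42 CPM with DMSO and 9.61, 8.18 and 8.39 CPM with NXP800. The treated libraries were above the controls at both times by small margins. The log2 fold change was 0.22 at 6 h (SE 0.13, adjusted p = 0.159), and 0.44 at 24 h (SE 0.13, adjusted p = 0.00914). The 6 h change passed the test with the replicate block (adjusted p = 0.0494) and when only the 6 h libraries were fitted (adjusted p = 0.0382). The 24 h call was lost without DMSO 24 h replicate 3 (0.32, adjusted p = 0.0549). The difference of its responses was 0.21 (adjusted p = 0.429).

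NR1D1 and NR1D2, the nuclear receptors that repress the gene of BMAL1 and bind heme, both rose at 6 h and 24 h. NR1D1 lies at chr17:40092793-40100589 on the minus strand. In DMSO 6 h its levels were 7.83, 7.54 and 6.44 CPM, and in NXP800 6 h they were 21.6, 14.99 and 12.5 CPM. At 24 h they were 13.2, 11.6 and 9.65 CPM with DMSO and 19.7, 19.8 and 16.9 CPM with NXP800. No treated library was within the control range of its time point, although the treated libraries at 6 h were widely spread. On the log2 scale the change was 1.17 at 6 h (SE 0.17, adjusted p = 2.63e-05) and 0.71 at 24 h (SE 0.16, adjusted p = 0.00158). The difference of the responses was −0.46 (adjusted p = 0.167), and it passed the test with the replicate block (adjusted p = 0.0154), with no filter on low counts (adjusted p = 0.0406) and without NXP800 6 h replicate 3 (adjusted p = 0.0453). Of the exons of NR1D1, 17.98% by length are shared with THRA, a thyroid hormone receptor gene on the other strand. THRA moved the opposite way, with log2 fold changes of −1.48 and −1.75 at 6 h and 24 h (adjusted p = 1.6e-07 and 1.02e-08), and the part of its reads in the values of NR1D1 was not tested.

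NR1D2 lies at chr3:23945286-23980617 on the plus strand and shares no exon with another gene. Its levels were 45.7, 43.1 and 29.0 CPM in DMSO 6 h and 86.0, 76.2 and 57.1 CPM in NXP800 6 h. The levels at 24 h were 40.1, 33.0 and 36.7 CPM with DMSO and 64.8, 68.9 and 68.6 CPM with NXP800. Replicate 3 was the lowest library in both 6 h groups, and the groups did not overlap at either time. The log2 fold change was 0.90 at 6 h (SE 0.15, adjusted p = 9.88e-05) and 0.88 at 24 h (SE 0.15, adjusted p = 0.000105). The response at 24 h differed from that at 6 h by −0.01 (adjusted p = 0.973).

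DBP, the D-box activator whose gene is a direct target of CLOCK and BMAL1, was the only one of the 10 that fell. It lies at chr19:48630030-48637379 on the minus strand, and with 38 to 116 counts per library it was the lowest of them. Its levels were 3.55, 3.34 and 2.92 CPM in DMSO 6 h and 1.38, 1.62 and 1.17 CPM in NXP800 6 h. At 24 h they were 3.88, 3.56 and 3.54 CPM with DMSO and 1.92, 1.60 and 3.16 CPM with NXP800. All treated libraries were below all controls of their time point, but at 24 h replicate 3 was close to them. On the log2 scale the change was −1.23 at 6 h (SE 0.22, adjusted p = 0.000214) and −0.72 at 24 h (SE 0.21, adjusted p = 0.00825). Without NXP800 24 h replicate 2 the latter was −0.50 (adjusted p = 0.0574), and without NXP800 24 h replicate 3 it was −1.06. Of the exons of DBP, 10.2% by length are shared with SPHK2 on the other strand, which fell at both times (log2 fold changes −0.58, adjusted p = 1.45e-05, and −0.28, adjusted p = 0.00575). The part of SPHK2 reads in the values of DBP was not tested.

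**Figure D2:**
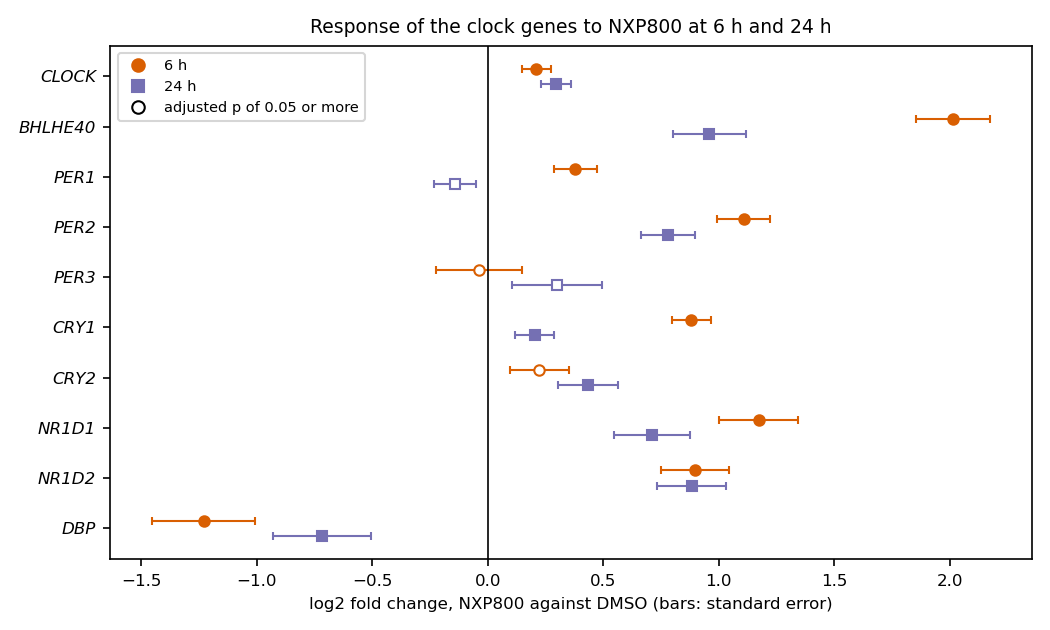
Log2 fold change of each of the 10 clock genes (x axis, NXP800 against DMSO, with bars for the standard error) at 6 h (circles) and 24 h (squares); open symbols mark an adjusted p of 0.05 or more. BHLHE40 is farthest to the right at both times (2.01 and 0.96), DBP alone lies to the left with filled symbols (−1.23 and −0.72), and PER1, PER3 and CRY2 each have an open symbol.

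The responses at the 2 time points were compared in the same model. The background share called was 25.8% of genes tested (12% higher at 24 h than at 6 h and 13.8% lower), and 3 of the 10 clock genes were called, all with a lower response at 24 h: BHLHE40, CRY1 and PER1. The median difference over the 10 genes was −0.17, beside −0.002 over all genes tested. The test with the replicate block called 6, of which 5 were lower and PER3 higher, and that fit called 6284 of the 15979 genes tested, more than the 4129 without the block. The control levels themselves differed between the times: in DMSO 24 h against DMSO 6 h, 5 of the 10 genes were called beside 41.6% of all genes tested (21.0% higher and 20.6% lower). PER1 (0.61) and NR1D1 (0.66, adjusted p = 0.00603) were higher at 24 h, and CLOCK (−0.28, adjusted p = 0.00226), CRY1 (−0.34, adjusted p = 0.00407) and PER3 (−0.70, adjusted p = 0.00813) were lower. The call of PER3 was lost without DMSO 6 h replicate 1 (adjusted p = 0.0576). PER2, CRY2, NR1D2, DBP and BHLHE40 did not pass this test. Time in culture, clock phase and differences between the 6 h and 24 h libraries as sets cannot be told apart here. The share of reads on no annotated gene was such a difference. The difference of the responses also sets these 2 sets of libraries side by side. In DMSO 24 h against 6 h the share of calls that were higher was 50.5%. With scaling by library size alone it was 26.5%, and the median of all genes was −0.15. For the difference of the responses the share was 46.6% and 59.6%.

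Levels were also put in order per length (CPM per kb of the union of exons), since longer genes give more reads. The union held the exons of all GENCODE models of a gene, while the counts were made on RefSeq genes. The order depends on these lengths, which for DBP came to 6485 bases. In DMSO 6 h the order of the mean levels was BHLHE40 (13.6 CPM per kb), CRY1 (8.53), NR1D2 (6.78), CLOCK (3.60), PER1 (3.11), NR1D1 (2.76), PER2 (2.57), PER3 (1.78), CRY2 (1.11) and DBP (0.504). Neighbours whose libraries overlapped in this order were PER1 with NR1D1, NR1D1 with PER2 and PER2 with PER3. In NXP800 6 h BHLHE40 reached 54.9 CPM per kb, and NR1D1 (6.23) and PER2 (5.54) stood above CLOCK (4.16) and PER1 (4.04), with NR1D1 overlapping PER2 and CLOCK overlapping PER1. In NXP800 24 h NR1D2 (11.6) stood above CRY1 (7.75), while in DMSO 24 h CRY1 (6.73) and NR1D2 (6.32) were close.

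**Figure D3:**
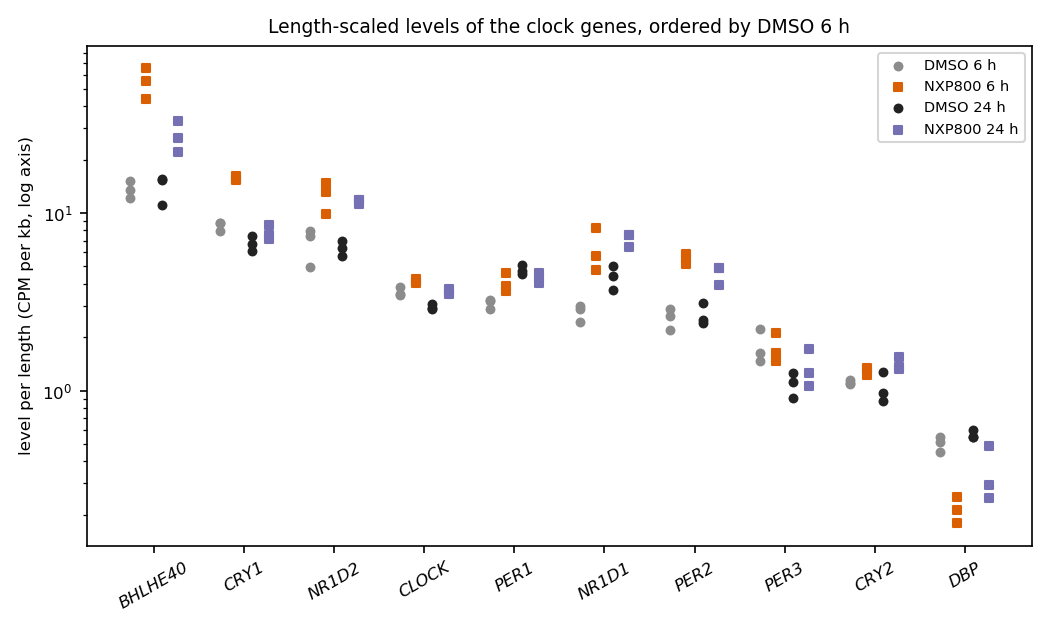
Level per length of the 10 clock genes (y axis, CPM per kb on a log axis), with each symbol 1 library of the 4 groups, ordered along the x axis by the mean in DMSO 6 h. BHLHE40 is at the top in all groups and DBP at the bottom, and the NXP800 6 h libraries of BHLHE40 stand around 54.9 CPM per kb against 13.6 in DMSO 6 h.

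Other genes of the clock pathway were taken from 4 lists written for this purpose with earlier results of these data known: the partners and activators of CLOCK, other repressors and outputs, the kinases and ligases that turn over PER and CRY proteins, and the CREB arm through which signals reach PER1. Of 25 genes, 23 were tested, and the other two, among them CIART (0 to 6 counts), were too low. At 6 h 11 rose and 2 fell (median log2 change 0.29), and at 24 h 16 rose and 2 fell (median 0.46). The 18 of 23 called at 24 h compare with a background of 56.0%, and the 13 of 23 at 6 h with 52.8%.

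Among the activators, BMAL1 (counted as ARNTL), the partner of CLOCK, had the largest rise. Its levels in replicates 1, 2 and 3 were 10.5, 9.46 and 10.4 CPM in DMSO 6 h and 36.8, 33.9 and 32.3 CPM in NXP800 6 h. The levels at 24 h were 9.10, 9.75 and 10.3 CPM with DMSO and 14.4, 14.5 and 13.8 CPM with NXP800. The groups were apart at both times, and the log2 fold change fell from 1.76 (adjusted p = 2.19e-10) to 0.55 (adjusted p = 5.39e-05), with a difference of the responses of −1.21 (adjusted p = 4.61e-06). The RefSeq window of BMAL1 held the REV-ERB/ROR element that the windows of the 10 clock genes lacked. The matches were at −247 to −241 and at 31 to 37 from the start. As for PER2, the window belongs to a start inside the span that RefSeq gives the gene. BMAL1 and its repressors NR1D1 and NR1D2 thus rose at both times. RORA, which activates BMAL1, rose at 6 h (0.93, adjusted p = 0.00118) and not by the test at 24 h (−0.06, adjusted p = 0.827), with a difference of −0.99 (adjusted p = 0.0225). NPAS2, which can stand in for CLOCK, rose at 24 h (0.45, adjusted p = 0.000205). RORB, at 15 to 56 counts, fell at 24 h (−1.07, adjusted p = 0.00325), and ARNTL2 did not pass the test at either time (0.13 and −0.09).

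All 4 tested genes of the other repressors and outputs rose at 24 h, and 2 rose at 6 h. Among all genes tested, 27.5% were called higher at 24 h and 25.0% at 6 h. NFIL3, a repressor at D-boxes, rose by 1.43 and 0.98 at 6 h and 24 h (adjusted p = 1.35e-08 and 6.92e-07). TEF, a relative of DBP that activates through the same element, rose by 0.81 (adjusted p = 0.00115) and 0.92 (adjusted p = 0.000338). HLF, another relative, at 9 to 51 counts, rose at 24 h (1.13, adjusted p = 0.00335). DBP thus fell while TEF rose, and NFIL3, which opposes them, rose. BHLHE41, the paralog of BHLHE40, rose at 24 h (0.78, adjusted p = 0.000329) and had a value of 0.27 at 6 h (adjusted p = 0.116).

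Of the 8 genes for turnover of PER and CRY proteins, 3 rose and 2 fell at 6 h, and 5 rose and 1 fell at 24 h. Among all genes tested, 25.0% were called higher and 27.8% lower at 6 h. At 24 h these shares were 27.5% and 28.6%. CSNK1D, a kinase that marks PER proteins, rose at both times (0.56 and 0.49). CSNK1E, at 35 to 84 counts, rose at 24 h (0.44, adjusted p = 0.0429). Of its exons, 18.5% by length are shared with TPTEP2-CSNK1E on the same strand, where reads may not have been assigned. BTRC, a ligase component for PER proteins, fell at 6 h (−0.23, adjusted p = 0.00787) and rose at 24 h (0.43, adjusted p = 4.29e-05). GSK3B rose at 24 h (0.46, adjusted p = 7.34e-06). TIMELESS, which in human cells also acts at replication forks, fell at both times (−0.26 and −0.71, adjusted p = 0.000835 and 2.83e-08). In the CREB arm, 4 of 6 rose at 6 h and 5 at 24 h, beside 25.0% and 27.5% of all genes tested. SIK1, a kinase that holds back CRTC proteins, rose by 1.19 and 0.83 (adjusted p = 0.000108 and 0.00656), although it has a near-identical copy that could share its reads. CREB1 rose by 0.62 and 0.22 (adjusted p = 2.93e-06 and 0.0191), and CREM by 0.29 and 0.78 (adjusted p = 0.00521 and 4.59e-07). CRTC3 rose by 0.27 and 0.79 (adjusted p = 0.0477 and 8.91e-06), CRTC1 had values of 0.14 and 0.62 and was called at 24 h, and CRTC2 passed the test at neither time (0.10 and 0.10).

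**Figure D4:**
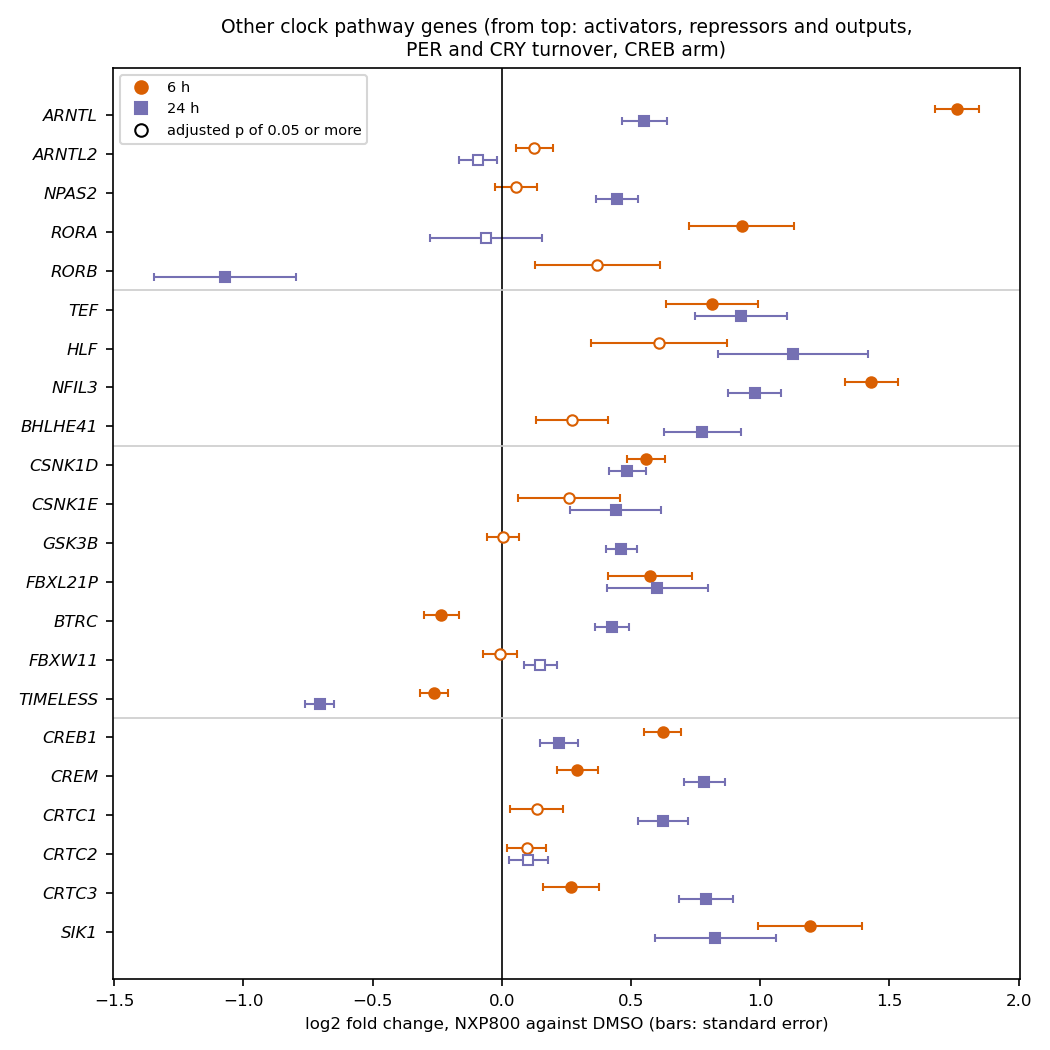
Log2 fold change of other clock pathway genes that were tested (x axis, NXP800 against DMSO, bars for the standard error) at 6 h (circles) and 24 h (squares), with open symbols for an adjusted p of 0.05 or more. ARNTL has the largest value at 6 h (1.76) and a smaller one at 24 h (0.55), NFIL3 lies to the right at both times, and TIMELESS lies to the left at both.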

How the data were processed

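RNA-seq counts of MNNG/HOS cells were analysed, 12 libraries in 4 groups taken from the sample labels. The deposited files hold unnormalized counts of reads on each gene, which the authors made from polyA RNA (strand-specific DNBSEQ libraries, paired reads) with fastp 0.20.1, STAR 2.7.5a and HTSeq 0.12.4 on hg38 with RefSeq genes. The strand and overlap settings of the counting are not given in the sources used here. Reads that overlapped several genes (2.10 to 2.43% per library) or aligned to several places (1.86 to 3.37%) were not assigned to a gene, which can lower genes with shared exons or close copies.

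Counts were fitted in R 4.3.3 with edgeR 4.0.16 (filterByExpr, TMM scaling, quasi-likelihood test) in one model of the 4 groups, two-sided, with Benjamini-Hochberg adjustment over 15979 genes. Fold changes are on the log2 scale from that model. Levels are CPM of the library total over the genes tested, scaled by the TMM factors. The common dispersion was 0.00723, so that replicate spread rather than counting error sets the precision, except for low genes such as DBP. Alternatives were DESeq2 1.42.0 (test and size factors), library size only, other filters, each time point alone, a replicate block, a stricter threshold and leaving out each library. The fit was tested on simulated data. Between replicates the chi-square per degree of freedom was 7.36 to 26.3, well above sampling noise, so no library was counted as a duplicate. Deviations from group means of libraries with the same replicate number correlated at 0.159 to 0.329 within each time point, against −0.268 to 0.0580 for different numbers. The main fit did not pair the samples by these numbers, since the methods describe no pairing. Pairing entered only in the replicate block, which was run as an alternative.

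The named genes are the 10 clock genes, the other pathway genes tested, and for the largest rise and the largest fall the 3 genes of closest profile. Some genes that this rule takes in are counted where lists are summarised and are otherwise not reported here. Promoter sequence was printed for members that passed the test. Markers checked were 6 mesenchymal and 5 of other cell types. The members and lists were chosen with earlier results of these data known, and the E-prime-box was added after the promoters were seen. Gene positions are from RefSeq on GRCh38.p14, and exon lengths and overlaps come from GENCODE models.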

Additional observations from a re-analysis of the deposited data

Results flagged for a closer look

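The responses to NXP800 of 3 clock genes differed between 6 h and 24 h by the test of the difference itself (edgeR's quasi-likelihood test, adjusted p below 0.05). These were 30% of the clock genes, beside 25.8% of all genes tested that were called for this difference. All 3 had a lower response at 24 h, as had 13.8% of all genes tested. Of the 3 clock genes, BHLHE40 had the largest difference, −1.06 on the log2 scale (adjusted p = 0.00235), with all 3 treated libraries above the controls at both times. CRY1 followed with −0.68 (adjusted p = 0.000577), and its groups overlapped at 24 h. PER1 differed by −0.52 (adjusted p = 0.00762), where its DMSO level was itself higher at 24 h. With 3 libraries a group, single libraries were not tested for standing apart.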

How the results depend on the processing

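Over all alternatives 7 to 9 clock genes were called at 6 h and 6 to 9 at 24 h. For the difference of the responses 3 to 6 were called, and for DMSO 24 h against 6 h 4 to 5. Of the other pathway genes 12 to 15 were called at 6 h and 15 to 20 at 24 h. The number of all genes called moved as well. Of 15979 genes tested, the main fit called 8435 at 6 h and 8953 at 24 h. The stricter threshold called 6482 and 7054, and the replicate block 9953 and 10411. The replicate block moved the count for the difference to 6, and it was not run for DMSO 24 h against 6 h, where the block lies within the time points. It changed 5 calls, all given above, and no other call of the clock genes. At 6 h no called clock gene was lost under any fit at the 0.05 threshold. At 24 h the calls of CRY1, CRY2 and DBP were lost in the fits given above. CRY1 was also lost when only the 24 h libraries were fitted (0.22, adjusted p = 0.0794). Signs turned only for values near 0 that were never called. NR1D2 changed its sign in the difference of the responses to 0.059 with library size only and to 0.0013 with no filter. In DMSO 24 h against 6 h PER2 became −0.092 and BHLHE40 −0.10 with library size only. Leaving out single libraries gave −0.21 to 0.16 for PER3 at 6 h and −0.17 to 0.16 for NR1D2 in the difference of the responses. In DMSO 24 h against 6 h it gave −0.067 to 0.15 for PER2, −0.27 to 0.015 for CRY2, −0.28 to 0.022 for NR1D2 and −0.039 to 0.19 for BHLHE40. The cause of these changes was not tested. DBP, at 38 to 116 counts, is the gene for which depth limits the precision most.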

Other observations

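Over the 12 libraries the profiles nearest to that of BHLHE40, by the root mean square distance of centred log2 CPM, were those of DUSP5 (0.162), TES (0.182) and DUSP1 (0.194). DUSP5 and DUSP1 encode phosphatases of MAP kinases. Their log2 fold changes were 1.80 and 2.31 at 6 h and 1.03 and 0.97 at 24 h. Among the profiles near to that of DBP were those of SEMA4G (0.166) and EHMT2 (0.193), which had log2 fold changes of −1.22 and −1.06 at 6 h and −0.91 and −0.93 at 24 h. EHMT2 encodes a histone methyltransferase. These genes were picked by their profiles over the same 12 libraries. Fold changes near those of BHLHE40 and DBP follow from that choice.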
